A study of Mus musculus with 48 samples.

Results

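The genes described here encode the protein subunits of the cytosolic ribosome. A gene was taken when its symbol was Rpsa, Rplp0, Rplp1 or Rplp2, or Rpl or Rps followed by a number and at most 1 of the letters a, x or l, and when at least 3 of the 24 mice had 10 or more counts. The names matched 81 of the 24411 gene rows, and 80 of them also met the count rule; Rpl10l was the gene that did not. Of the 80 genes, 32 belong to the small subunit (Rps genes and Rpsa) and 48 to the large subunit (Rpl genes, with the stalk genes Rplp0, Rplp1 and Rplp2). In the annotation 79 are protein-coding and 1, Rps4l, is a transcribed processed pseudogene.

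RNA was taken from macrophages washed out of the airspaces of 24 male mice by bronchoalveolar lavage. Wild-type (WT) mice and Siglec-F-deficient mice (KO) formed 8 groups of 3; Siglec-F, the product of Siglecf, binds sialic acids at the surface of alveolar macrophages. In each genotype the groups were naive mice, labelled as saline controls at day 0, and mice sampled 7, 14 or 21 days after bleomycin (2.5 units/kg) had been instilled into the trachea, a standard model of lung injury and fibrosis. The sources used here do not give strain, age, the structure of the deleted allele or the way other lavage cells were removed, and RNA of such cells may contribute to the values. In bulk RNA, fewer cells of a type and less RNA per cell cannot be told apart.

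A ribosome joins a small subunit, which decodes the mRNA, to a large subunit, which forms the peptide bond. Each subunit is assembled in the nucleolus from ribosomal RNA and proteins that are needed in like amounts, and most of their mRNAs begin with a C followed by a run of pyrimidines, the 5′ terminal oligopyrimidine (TOP) motif, through which the kinase mTOR and the binding protein LARP1 control their translation and stability. Several ribosomal proteins also have roles outside the ribosome: Rpl5 and Rpl11 bind the p53 regulator Mdm2 when ribosome assembly is disturbed, and Rps6 is the substrate of the S6 kinases.

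The examples below were chosen because their annotated starts carry this feature, which most of the annotated starts of these genes do not, as counted after them. Each window runs from 15 bases before the RefSeq transcript start to the 15th base of the transcript (GRCm38.p6, coding strand). The capitals mark the motif searched, a C at the annotated start followed by at least 4 pyrimidines, with all the pyrimidines that follow it.
Rps6 (chr4:86857353-86857382, minus strand): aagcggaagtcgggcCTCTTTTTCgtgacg
Rps10 (chr17:27635230-27635259, minus strand): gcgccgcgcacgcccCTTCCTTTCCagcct
Rps18 (chr17:33955651-33955680, minus strand): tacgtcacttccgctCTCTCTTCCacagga
Rpl15 (chr14:18270972-18271001, minus strand): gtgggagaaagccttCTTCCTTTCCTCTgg
Rpl35 (chr2:39005117-39005146, minus strand): cggccccgccctttcCTCTTTCTCTCgaac
Rpl38 (chr11:114668565-114668594, plus strand): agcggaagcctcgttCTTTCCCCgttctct
Rplp2 (chr7:141447636-141447665, plus strand): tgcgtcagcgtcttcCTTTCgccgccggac
Rps27 (chr3:90213634-90213663, minus strand): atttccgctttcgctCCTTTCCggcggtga

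Of the 80 genes, 59 matched the RefSeq promoter table and 21 did not. The motif stood exactly at the annotated start in 13 of the 59 (22%), against 813 of 27025 genes in the table (3.01%). With a shift of up to 5 bases allowed, the shares were 47.5% and 21.2%. Among other translation genes the motif stood at the start of 4 of 17 elongation factor and other known TOP genes (23.5%), 1 of 24 initiation factors (Eif genes outside that list), 0 of 42 ribosome biogenesis genes and 0 of 69 mitochondrial ribosomal protein genes. Only the coding strand was searched, a match is a description of the letters, and annotated starts can lie some bases from those used in macrophages.

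All 80 genes were among the 12634 tested. Totals ran from 24877049 to 47457085 counts per mouse. Levels below are in CPM (counts relative to the library's TMM-scaled total), fold changes are on the log2 scale with the SE of the model, and a gene was called when its Benjamini-Hochberg adjusted p from edgeR's quasi-likelihood test, over all 12634 genes, was under 0.05. Siglecf stood at 0 to 0.577 CPM in the 12 KO libraries and at 66.31 to 480.7 CPM in the 12 WT libraries. All 18 resident alveolar macrophage markers had counts in both naive groups, summing to 30350 to 36530 CPM. Of the 18 markers of monocytes and recruited macrophages, 16 had counts in each naive group, summing to 557.2 to 612.2 CPM; Plac8 was at 0 in both naive groups and Ly6c2 in WT naive mice. Of the 9 neutrophil markers with a row, 5 had counts in each naive group, summing to 57.8 to 66.23 CPM, and 5 to 7 had counts in every group. Among the others, Mpo, Elane and Camp were at 0 in the naive, day 14 and day 21 groups of both genotypes. A pair of libraries stood apart, and results that rest on them are given with and without them. Mouse 1 of the WT naive group and mouse 1 of the WT day 7 group had 5.996% and 8.19% of counts on Rn45s, the ribosomal RNA precursor, against 0.743 to 4.746% in the other 22 libraries, and their balance of short over long mRNAs outside the ribosomal genes was the highest.

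The ribosomal protein genes were among the most abundant transcripts of these macrophages. Their median level over the 24 mice was 399 CPM against 18.99 CPM for all genes tested, and 70 of the 80 ranked in the top 1000. Per kilobase of the annotated transcript their mean levels ran from 1.39 to 1450 CPM per kb with a median of 511. The highest were the acidic stalk proteins Rplp2 (1454 CPM per kb) and Rplp1 (1319), which form the flexible arm that recruits elongation factors, then Rps9 (1136), Rps2 (1119) and Rpl10 (1031). The lowest were Rpl3l (1.394), the striated muscle form of Rpl3, Rpl39l (2.309), the testis-enriched form of Rpl39, and Rps27 (3.7), Rpl30 (30.74) and Rpl26 (36.02). Rps27, Rpl30 and Rpl26 have near-identical rows in the table that hold most of their reads, as described below. Between mice the genes varied about as much as other genes: the median SD of log2(CPM + 1) was 0.25, beside 0.248 for all genes tested. It was largest for Rps4l (0.567), Rps27 (0.549), Rpl26 (0.465) and Rpl3l (0.406), and smallest for Rpl19 (0.17), Rpl29 (0.174), Rpl3 (0.187) and Rpl7a (0.188).

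Together the 80 genes took up 2.536 to 4.617% of a mouse's counts. In WT naive mice the share was 4.617, 3.743 and 4.276% (4.212 ± 0.441, SD, n = 3), and in WT mice at day 7 it was 4.247, 3.175 and 3.291%. At day 14 it was 2.947, 2.789 and 2.88%, and at day 21 it was 2.653, 2.705 and 2.536% (2.631 ± 0.0866, SD, n = 3). Every WT mouse of days 14 and 21 lay below every WT naive mouse, and the day 7 mice overlapped the naive mice.

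In KO naive mice the share was 3.847, 3.913 and 3.825%, and at day 7 it was 3.813, 3.506 and 3.274%. It was 2.578, 3.473 and 3.818% at day 14 and 3.231, 2.872 and 2.538% at day 21 (2.88 ± 0.347, SD, n = 3). All KO mice of the 3 bleomycin days lay below all KO naive mice, by a small margin for mouse 1 of day 7 and mouse 3 of day 14. KO mice of day 14 spread the most of the 8 groups.

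**Figure D1:**
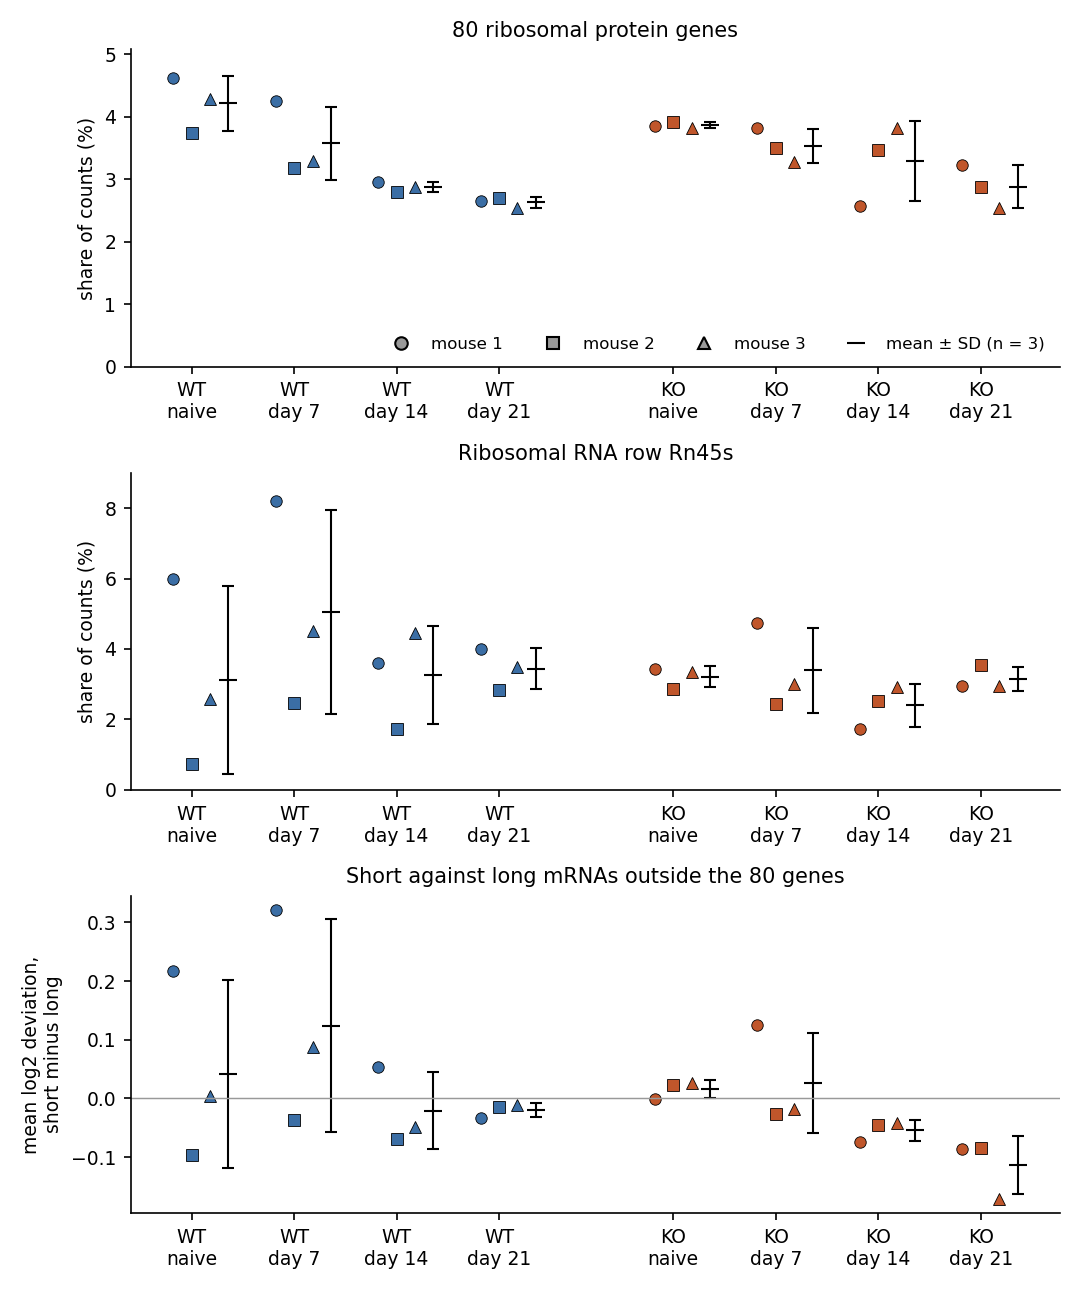
Values of each of the 24 mice by group for the summed share of counts on the 80 ribosomal protein genes, the share of counts on Rn45s, and the balance of short over long mRNAs outside the 80 genes (mean log2 deviation of genes under 1000 bases minus that of genes over 4000 bases). A gene's length here is the median over all its annotated transcripts. Points are mice. Mouse 1 of WT naive and mouse 1 of WT day 7 are highest in all 3 measures within their groups.

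The genes moved together from mouse to mouse. Within WT naive mice, 73 of the 80 genes were highest in mouse 1 and 74 were lowest in mouse 2, and within WT mice of day 7, 76 were highest in mouse 1 and 71 lowest in mouse 2. Within KO mice of day 14, 76 genes were lowest in mouse 1 and 71 highest in mouse 3. The WT naive group had the highest group mean for 69 of the 80 genes and the WT day 21 group the lowest for 71.

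Several library measures moved with that order in some groups. Short over long mRNA balance was 0.218, -0.0959 and 0.00413 in WT naive mice and 0.321, -0.0372 and 0.0882 in WT mice of day 7, the same order as that of the ribosomal gene shares. The balance had the order of the shares in 4 of the 8 groups and the Rn45s share in 3. Within KO mice of day 14, summed recruited macrophage markers were 5561, 3901 and 2191 CPM and resident markers 21000, 26040 and 31320 CPM, so the mouse with the lowest ribosomal gene share had the most recruited and the fewest resident markers. This was not so elsewhere: recruited markers had the reverse order of the shares in 1 of the 8 groups, that one, and resident markers had the order of the shares in 3. KO mice of day 7 had 6687, 8101 and 4187 CPM of recruited markers and 12220, 13370 and 17020 CPM of resident markers, so mouse 3, with the lowest share, had the fewest recruited and the most resident markers. KO mice of day 21 had 2415, 7697 and 4809 CPM of recruited markers, and mouse 1, with the fewest, had the highest ribosomal gene share. The part of RNA length, Rn45s and cell mixture in these differences was not tested.

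**Figure D2:**
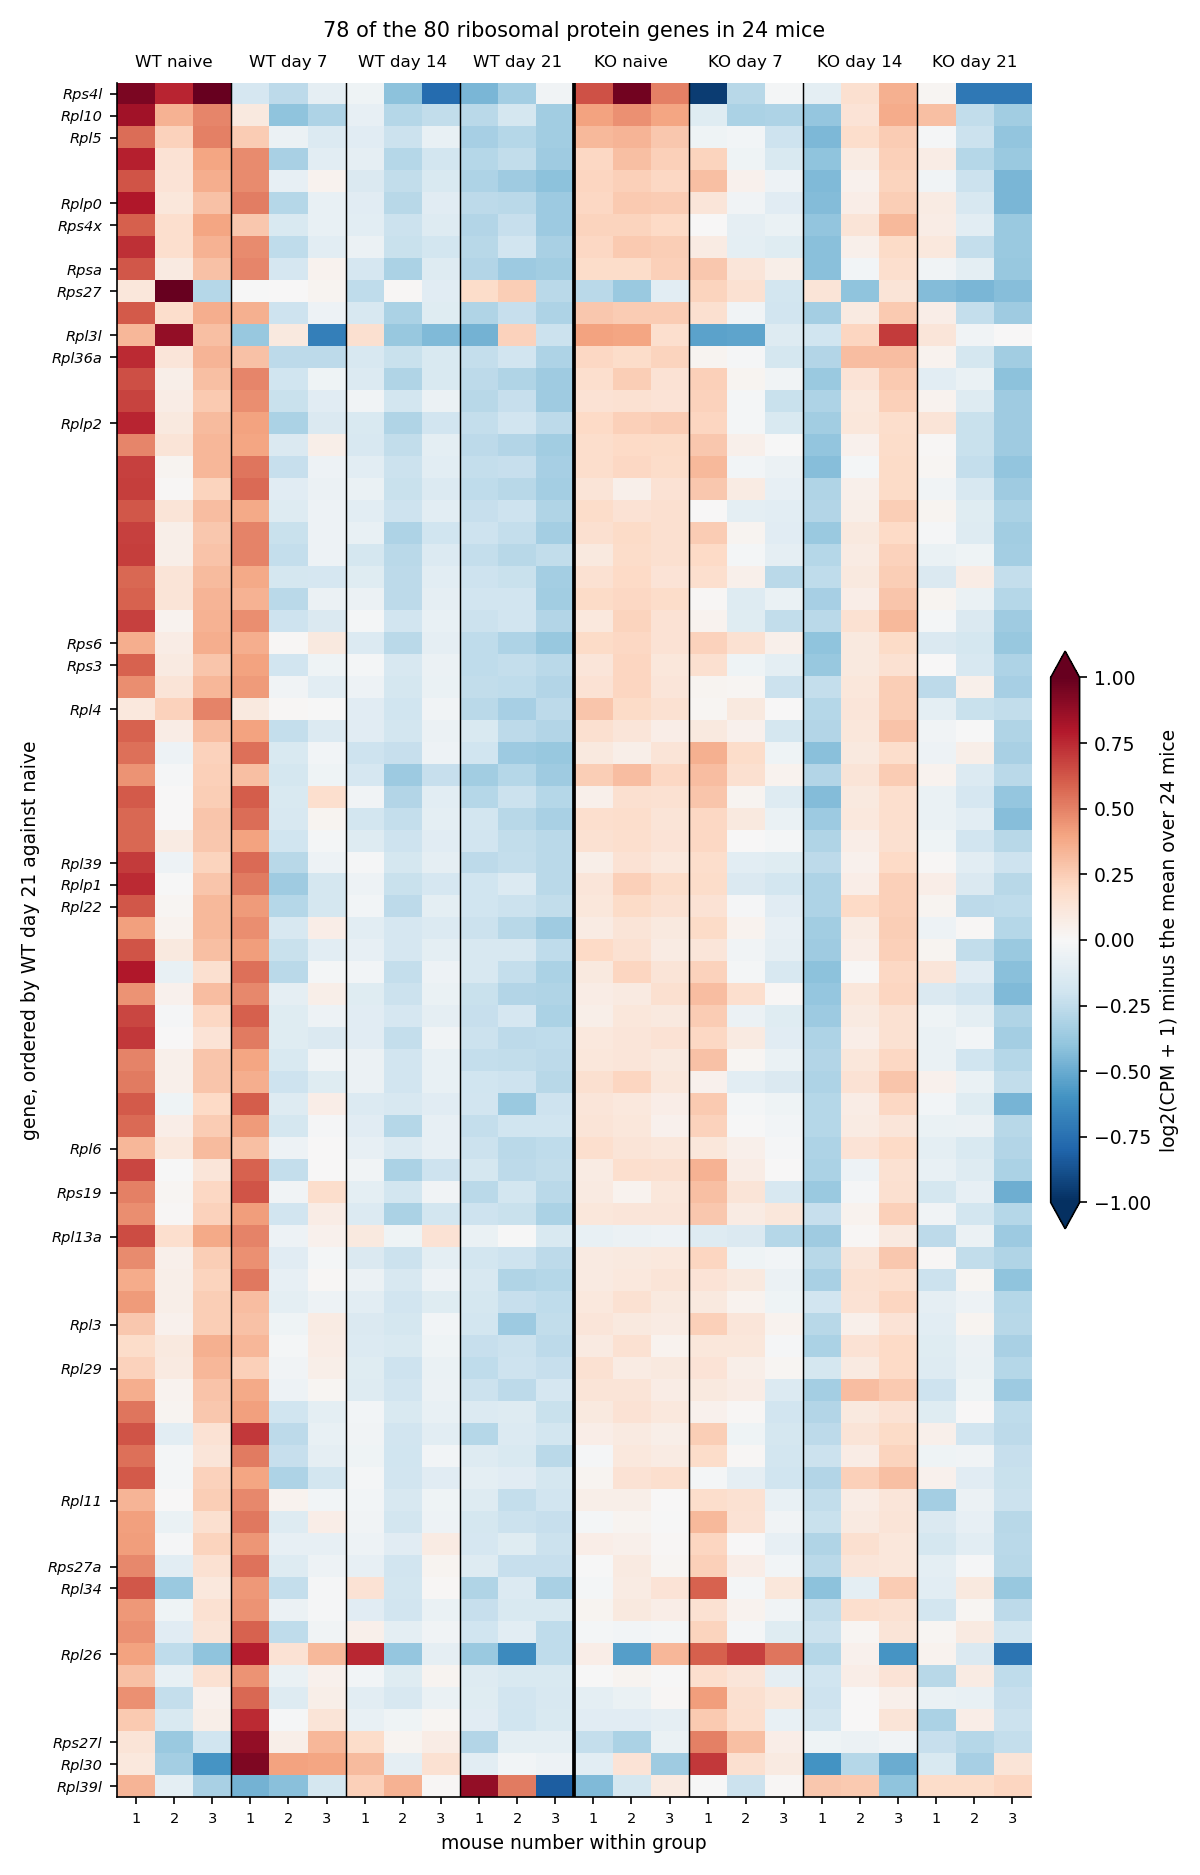
Heat map of 78 of the 80 ribosomal protein genes (rows, some of them labelled) in each of the 24 mice (columns, by group), as log2(CPM + 1) minus the gene's mean over all mice. Most rows are high in WT naive mouse 1 and WT day 7 mouse 1 and low in WT mice of day 21 and in KO day 14 mouse 1.

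In WT mice the ribosomal protein genes were lower at days 14 and 21 after bleomycin than in naive mice, in both subunits, with modest sizes. At day 14, 49 of the 80 genes fell and none rose, and at day 21, 66 fell and none rose. The share of all genes tested that fell was 13.4% at day 14 and 13.7% at day 21. The 80 genes had a median log2 fold change of -0.439 (day 14) and -0.563 (day 21), beside -0.00285 and 0.00211 over all genes tested. At day 14 the genes that fell were 20 of 32 in the small subunit and 29 of 48 in the large, and at day 21 they were 25 and 41.

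For 64 of the 80 genes every WT mouse of day 14 lay below every WT naive mouse, and for 71 at day 21; 21.5% and 22.3% of all genes tested did so. The counts rest in part on single libraries. At day 14 the count was 11 without WT naive mouse 1 (10 lower, 1 higher), 26 without WT naive mouse 3, and 32, 20 and 29 without day 14 mouse 1, 2 and 3. At day 21 it was 32 without WT naive mouse 1. With each mouse left out in turn, 5 genes were called every time at day 14 (Rpl10, Rpl23a, Rpl5, Rps4l and Rps4x) and 31 at day 21. With both Rn45s-rich libraries left out it was 34 at day 14 and 59 at day 21, and with the short over long mRNA balance as a covariate it was 61 and 71.

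All 3 stalk genes fell in WT mice at days 14 and 21. Rplp0 (chromosome 5, 115559467 to 115563727, plus strand, GRCm38), the base of the stalk, stood at 2165, 1346 and 1522 CPM in WT naive mice, 1149, 1028 and 1147 CPM at day 14 and 1036, 1033 and 964.7 CPM at day 21. All mice of the later days were below the naive mice. Its log2 fold change was -0.60 (SE 0.19, edgeR adjusted p = 0.023) at day 14 and -0.73 (SE 0.19, adjusted p = 0.0068) at day 21. Rplp1 and Rplp2 also fell on both days, by 0.52 and 0.63 at day 14 and 0.58 and 0.65 at day 21 on the log2 scale (edgeR adjusted p = 0.047, 0.011, 0.029 and 0.0088). Reads of Rplp2 were shared in part with a near-identical row. WT naive mouse 1 was the highest for Rplp0, and without it none of the 6 calls held: Rplp0, Rplp1 and Rplp2 stood at -0.373, -0.291 and -0.426 at day 14 and at -0.505, -0.348 and -0.443 at day 21 (edgeR adjusted p = 0.16, 0.29, 0.084, 0.056, 0.19 and 0.071). The Rplp0 call at day 14 was also lost without day 14 mouse 2 or 3, and the Rplp1 calls without most of the other mice.

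Among the large subunit genes, Rpl10 and Rpl5 had fallen by day 7 and stayed low. Rpl10 (chromosome X, 74270812 to 74273135, plus strand), the late-joining protein next to the peptidyl transferase center, stood at 1426, 1015 and 1122 CPM in WT naive mice, 853.5, 604.9 and 645 CPM at day 7, 756.1, 655.9 and 671.9 CPM at day 14 and 663.3, 707.8 and 626.2 CPM at day 21. No mouse given bleomycin reached the lowest naive mouse. The log2 fold changes were -0.76 (SE 0.18, edgeR adjusted p = 0.0024), -0.77 (SE 0.18, adjusted p = 0.0025) and -0.84 (SE 0.18, adjusted p = 0.0014).

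Rpl5 (chromosome 5, 107900502 to 107909005, plus strand), a partner of 5S ribosomal RNA, stood at 835.3, 663.1 and 801.5 CPM in WT naive mice. It was at 673.3, 541.9 and 514.8 CPM at day 7, 521.8, 487.3 and 536.3 CPM at day 14 and 449.1, 463.4 and 443.1 CPM at day 21. Day 7 mouse 1 overlapped the naive range and no later mouse did. It fell by 0.41, 0.57 and 0.76 on the log2 scale (edgeR adjusted p = 0.03, 0.0043 and 0.0004). At day 7 it was not called, at -0.337 to -0.368, without WT naive mouse 1 or 3 or day 7 mouse 2 or 3. Its partner Rpl11, which joins the same 5S particle, was called only at day 21, at -0.39 (SE 0.13, edgeR adjusted p = 0.022), and stood at -0.28 at day 14 (edgeR adjusted p = 0.096). The day 21 call was lost without WT naive mouse 1 or 3 or day 21 mouse 2 or 3.

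Rpl36a, an X-linked gene, also fell at day 7. It had 301.2, 194.9 and 227.3 CPM in WT naive mice and 219.8, 149.2 and 149.6 CPM at day 7, with mouse 1 inside the naive range, and its log2 fold change was -0.48 (SE 0.17, edgeR adjusted p = 0.03). It was not called without WT naive mouse 1 (-0.29) or day 7 mouse 2 or 3 (-0.373 and -0.387).

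Other large subunit genes were spread around the median. Rpl4 had 777.5, 847.2 and 1021 CPM in WT naive mice and 598.3, 573 and 600.4 CPM at day 21, when it fell by 0.58 (edgeR adjusted p = 0.00044). Among the genes called, the smallest decreases at day 14 were those of Rpl3 (-0.31), Rpl21 (-0.33), Rpl29 (-0.35) and Rpl6 (-0.36), and at day 21 those of Rpl24 (-0.38), Rpl31 (-0.39), Rpl11 (-0.39) and Rpl27a (-0.39). Rpl3 helps form the peptidyl transferase center, and Rpl24 and Rpl31 sit at the surface of the large subunit. Rpl22, whose protein lies on the outer face of the subunit, fell by 0.47 at day 14 and 0.57 at day 21 (edgeR adjusted p = 0.038 and 0.015), and Rpl39, a short protein of the exit tunnel, fell by 0.58 at day 21 (edgeR adjusted p = 0.017) and was not called at day 14. Without WT naive mouse 1, Rpl22 stood at -0.312 and -0.404 (edgeR adjusted p = 0.2 and 0.091) and Rpl39 at -0.351 (adjusted p = 0.14). Leaving out day 21 mouse 3 also ended the Rpl39 call, and the day 14 call of Rpl22 was lost in 5 of 6 such fits.

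Small subunit genes had values of similar size. Rps6 (chromosome 4, 86854660 to 86857412, minus strand), whose TOP sequence is printed above, stood at 794.2, 647.3 and 793.9 CPM in WT naive mice and 793.5, 621.8 and 657.9 CPM at day 7. At day 14 it had 559.2, 510.9 and 580.4 CPM and at day 21 it had 516.3, 498.6 and 473.2 CPM. The day 7 mice overlapped the naive mice, and those of the later days did not. The log2 fold changes were -0.11 (SE 0.13, edgeR adjusted p = 0.54) at day 7, -0.44 (SE 0.13, adjusted p = 0.012) at day 14 and -0.59 (SE 0.13, adjusted p = 0.0014) at day 21. At day 14 it was not called without WT naive mouse 3 or day 14 mouse 2 (-0.385 and -0.388).

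Rpsa, also known as the laminin receptor precursor, stood at 1443, 996.1 and 1145 CPM in WT naive mice, 832.6, 750.4 and 855.2 CPM at day 14 and 763.2, 727.2 and 735.1 CPM at day 21, with no overlap. It fell by 0.56 (SE 0.16, edgeR adjusted p = 0.01) and 0.69 (SE 0.16, adjusted p = 0.0023). Rps3, which lines the mRNA entry channel, fell by 0.42 and 0.59 (edgeR adjusted p = 0.039 and 0.0049). At day 14 the Rpsa call was lost without WT naive mouse 1 (-0.399, adjusted p = 0.073) and the Rps3 call in 5 of 6 fits with 1 mouse left out.

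Rps4x, the X-linked form of Rps4, fell by 0.55 and 0.69 (edgeR adjusted p = 0.0073 and 0.0012). Rps19, the gene most often mutated in Diamond-Blackfan anemia, was called only at day 21 (log2 fold change -0.50, edgeR adjusted p = 0.023), and not without WT naive mouse 1 or day 21 mouse 1 or 3. Rps27a, which encodes ubiquitin fused to a small subunit protein, stood at -0.39 at day 21 (edgeR adjusted p = 0.06) and was not called. The 14 genes not called at day 21 were Rpl19, Rpl26, Rpl30, Rpl34, Rpl39l, Rpl3l, Rpl41, Rps2, Rps21, Rps27a, Rps27l, Rps28, Rps29 and Rps9, listed here because they are the remainder.

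**Figure D3:**
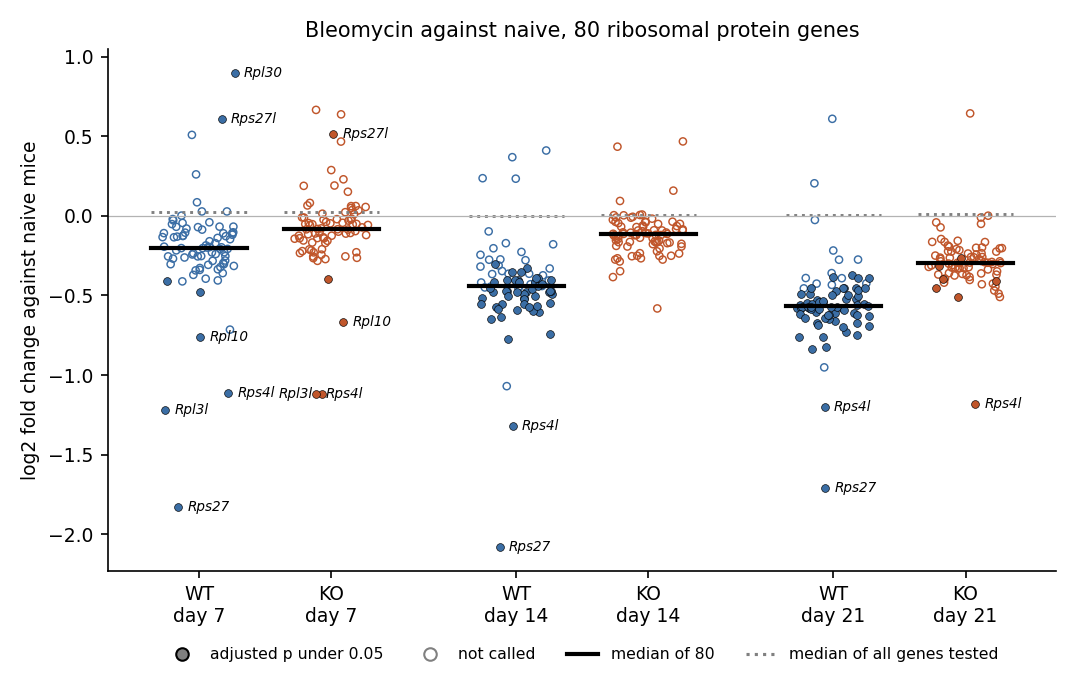
Log2 fold change of each of the 80 ribosomal protein genes against naive mice of the same genotype, by genotype and day; filled points have an adjusted p under 0.05, bars mark the median of the 80 genes and dotted lines that of all genes tested. The WT medians lie at -0.201, -0.439 and -0.563, and the KO medians at -0.0838, -0.117 and -0.294.

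At day 7 few of the genes were called, and in both directions. In WT mice 2 rose, Rps27l and Rpl30, and 6 fell, Rps27, Rpl3l, Rps4l, Rpl10, Rpl36a and Rpl5, where 20.2% of all genes tested rose and 15.3% fell. Rpl30 stood at -0.186 with its near-identical row summed, and Rps27 at 0.182 without WT naive mouse 2, as described below. In KO mice 1 rose, Rps27l, and 4 fell, Rpl3l, Rps4l, Rpl10 and Rpl5, where 19.7% of all genes tested rose and 14.4% fell; the Rpl5 call was lost in all 6 fits with 1 mouse left out. The medians of the 80 genes were -0.201 in WT and -0.0838 in KO mice, and those of all genes tested were 0.0217 and 0.0223. The WT count was 40 without WT day 7 mouse 1 (39 lower), 15 without both Rn45s-rich libraries, 56 with the mRNA length balance as a covariate and 4 (Rpl10, Rpl30, Rps27l and Rps4l) without day 7 mouse 3. The KO count was 2 (Rpl10 and Rps4l) without mouse 1 or 2 of the naive group or mouse 1 of day 7, and 15 with the length balance as a covariate.

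Rps27l was the protein-coding paralog that rose at day 7 in both genotypes. It encodes a near copy of Rps27 and is a known p53 target. On chromosome 9 (66946086 to 66949516, plus strand), it stood at 52.71, 36.98 and 41.9 CPM in WT naive mice and 89.64, 50.11 and 60.87 CPM at day 7, and at 40.77, 38.6 and 46.09 CPM in KO naive mice and 68.83, 59.69 and 50.47 CPM at day 7. In KO mice the 2 groups did not overlap, while in WT mice day 7 mouse 2 lay below naive mouse 1. The log2 fold change was 0.61 (SE 0.16, edgeR adjusted p = 0.0057) in WT and 0.51 (SE 0.16, adjusted p = 0.017) in KO mice.

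At day 21 Rps27l was back at 39.05, 45.09 and 44.98 CPM in WT and 41.01, 39.46 and 40.66 CPM in KO mice. It had fallen from day 7 by 0.64 in WT and 0.56 in KO mice (edgeR adjusted p = 0.013 and 0.022). That fall was not called in WT mice without day 7 mouse 1 or day 21 mouse 1, nor in KO mice without mouse 1 or 2 of day 7 or mouse 2 or 3 of day 21. At day 7 it was not called in WT mice without day 7 mouse 1, at 0.339, nor in KO mice with KO naive mouse 1, KO naive mouse 2 or KO day 7 mouse 1 left out.

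Rps4l and Rpl3l, the low-level paralogs, fell at day 7 in both genotypes. Rps4l (chromosome 6, 148354656 to 148355598, plus strand) stood at 51.54, 45.24 and 53.48 CPM in WT naive mice, 23.32, 21.85 and 24.66 CPM at day 7, 25.47, 19.61 and 15.07 CPM at day 14 and 18.95, 20.64 and 25.74 CPM at day 21. All naive mice lay above all mice given bleomycin. The log2 fold changes were -1.11 (SE 0.24, edgeR adjusted p = 0.001), -1.32 (adjusted p = 0.00026) and -1.2 (adjusted p = 0.0006). In KO mice it had 41.46, 52.47 and 37.8 CPM in naive mice, 13.19, 21.52 and 26 CPM at day 7, 24.52, 29.52 and 33.89 CPM at day 14 and 26.74, 15.64 and 15.65 CPM at day 21, again with no overlap. It fell by 1.12 at day 7 and 1.18 at day 21 (edgeR adjusted p = 0.00097 and 0.0011), and stood at -0.58 at day 14 (adjusted p = 0.094).

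Rpl3l was near the detection floor, with 2.525, 4.171 and 2.454 CPM in WT naive mice and 1.163, 1.995 and 0.7463 CPM at day 7. It fell by 1.22 in WT and 1.12 in KO mice (edgeR adjusted p = 0.025 and 0.039), and in WT mice it was not called without naive mouse 2 or day 7 mouse 1 or 3. In KO mice the call was lost in 5 of 6 fits with 1 mouse left out, all but that without day 7 mouse 3, with adjusted p up to 0.13. The testis-enriched Rpl39l stayed at 0.2418 to 3.042 CPM over the 24 mice and was not called against naive mice on any day. Among the 4 paralogs that met the count rule (Rpl3l, Rpl39l, Rps4l and Rps27l), those that moved at day 7 did so in different directions.

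In KO mice fewer ribosomal protein genes were called. At day 14 none of the 80 was called by edgeR, where 16.9% of all genes tested were called. At an unadjusted p under 0.05 there was 1, Rps4l, beside 3779 of the 12634 genes tested, and DESeq2 also called 0 of the 80. The median of the 80 genes was -0.117, and 0.0183 without KO day 14 mouse 1, which had the lowest ribosomal levels of the group. At day 21, 7 genes fell and none rose, among them Rps4l, Rpl5, Rps6, Rpl4, Rpl6 and Rpl29, where 6.89% of all genes tested fell. An unadjusted edgeR p under 0.05, in either direction, was found for 30 of the 80 and for 4293 of the 12634 genes tested. The median was -0.294, beside 0.0109 for all genes tested, and for 68 of the 80 genes every KO mouse of day 21 lay below every KO naive mouse, against 17.4% of all genes tested.

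The KO count at day 21 depended on single mice. It was 16 without KO day 21 mouse 1, 4 without mouse 2 and 1 (Rps4l) without mouse 3. It was 3 without KO naive mouse 1 and 4 without KO naive mouse 2 or 3, with Rpl5 and Rps4l among those called each time. With the mRNA length balance as a covariate the count was 5, of which 4 were among the 7 genes called in the main fit. Over the alternative fits the median ran from -0.362 to -0.0861. The upper value lay further from the main one than the spread between mice. Rpl5 stood at 707.7, 717 and 681.3 CPM in KO naive mice and 560.1, 485.9 and 431 CPM at day 21, without overlap. It fell by 0.51 (edgeR adjusted p = 0.014). Rps6 had 703.3, 710.2 and 680.1 CPM in KO naive mice, 724.3, 686.8 and 638.7 CPM at day 7, 465.7, 659.8 and 705.5 CPM at day 14 and 556.6, 547 and 474.8 CPM at day 21.

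At day 14, mouse 1 was the lowest of the 12 KO mice for Rps6 while mouse 3 lay among the naive mice, and at day 21 all mice were below them. Rps6 fell by 0.41 at day 21 (edgeR adjusted p = 0.025), a call that was lost in 5 of 6 fits with 1 mouse left out. Rpl10 had 1058, 1098 and 1048 CPM in KO naive mice, 733.8, 642.3 and 645.9 CPM at day 7, 609.2, 876.7 and 1031 CPM at day 14 and 984.9, 672.4 and 625.6 CPM at day 21. It fell at day 7 by 0.66 (edgeR adjusted p = 0.0068) and stood at -0.35 (adjusted p = 0.2) and -0.49 (adjusted p = 0.055) later. The stalk genes were not called in KO mice on any day, with Rplp0 at 1432, 1487 and 1485 CPM in naive mice and 1316, 1110 and 905.7 CPM at day 21.

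Day 21 was also compared with day 7 within each genotype. In WT mice 11 of the 80 fell and none rose, with a median of -0.352, where 6.15% of all genes tested fell. The members with the largest decreases called were Rpl30, Rps27l, Rps19 and Rps7. In KO mice 3 fell, Rpl26, Rps27l and Rps6, and none rose, with a median of -0.212, where 7.73% of all genes tested fell. Rpl30 and Rpl26 have near-identical rows, and with these summed neither was called: Rpl30 moved from -0.693 to -0.328 in WT mice (edgeR adjusted p = 0.18) and Rpl26 from -0.896 to -0.19 in KO mice (adjusted p = 0.48). The WT count was 0 without WT day 7 mouse 1, 29 without day 7 mouse 2, 6 without day 7 mouse 3, 2 (Rpl3 and Rps6) without day 21 mouse 1, 1 (Rps27l) without mouse 2 and 2 without mouse 3, when Rps27l fell and Rpl39l rose. The KO count was 0 when mouse 1 or 2 of day 7, or mouse 2 or 3 of day 21, was left out. With the mRNA length balance as a covariate the WT count was 1, Rps27l, with a median of -0.0816, and the KO median was 0.0216.

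KO and WT mice were compared at each time. None of the 80 genes was called by edgeR at any of the 4 times, where 0.546% of all genes tested were called in naive mice, 0.00792% at day 7, 0.135% at day 14 and 0.095% at day 21. At an unadjusted p under 0.05 there were 2 in naive mice (Rps27 and Rpl13a), 1 at day 7 (Rpl13a), 3 at day 14 (Rpl30, Rps4l and Rpl18) and 0 at day 21. Among the 12634 genes tested, 1053, 580, 1269 and 1236 had such a p at the 4 times. DESeq2 called 1 of the 80 in naive mice, Rps27, and 0 at the other times. The counts at an unadjusted p under 0.05 depended on the covariates. With the Rn45s share they were 58, 3, 29 and 2 of the 80 at the 4 times, and with the mRNA length balance 2, 7, 38 and 53. The numbers of all genes tested at this p in those fits are not given here, so no background stands beside these counts. The adjusted test called 1 of the 80 in naive mice (Rpl13a) and 0 later with either covariate.

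The sign of the median changed over time. It was -0.177 in naive mice, with 77 of 80 genes lower in KO, -0.0662 at day 7, 0.141 at day 14, with 74 of 80 higher in KO, and 0.0849 at day 21, with 72 of 80 higher. The naive median was -0.0312 without WT naive mouse 1, and the day 7 median turned to 0.138 without WT day 7 mouse 1, 0.0406 with the Rn45s share as a covariate and 0.117 with the mRNA length balance. The day 14 median was 0.0314 without KO day 14 mouse 3, and the day 21 median 0.0221 without KO day 21 mouse 1.

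Rpl13a, a large subunit protein also known from the translational silencing complex of interferon-treated monocytes, had the smallest p among the genes without a near-identical row. It stood at 722.4, 515.7 and 597.4 CPM in WT naive mice and 435.9, 440.1 and 443.1 CPM in KO naive mice. The 2 groups did not overlap. The log2 fold change was -0.48 (SE 0.14, unadjusted p = 0.0025, edgeR adjusted p = 0.18), so it was not called. It was called with the Rn45s share or the mRNA length balance as a covariate. At day 7 it had 646.1, 441.4 and 470.9 CPM in WT and 419.2, 413.6 and 376.5 CPM in KO mice, and at day 14 the genotypes overlapped.

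The difference between the genotypes in the response to bleomycin was tested itself, and no ribosomal gene was called by edgeR on any day. At an unadjusted p under 0.05 there were 1 at day 7 (Rps27), 6 at day 14 and 0 at day 21, and DESeq2 called 0. Among the 12634 genes tested, 776, 1299 and 1361 had such a p. With the Rn45s share as a covariate the counts among the 80 genes were 29, 73 and 54, and with the mRNA length balance 22, 47 and 58. The numbers of all genes tested at this p in those fits are not given here, so no background stands beside these counts. The adjusted test then called 1 of the 80 at day 14 (Rps10) with the first covariate and 2 at day 21 (Rpl39 and Rps29) with the second. In the fit without covariates, 0.00792%, 0.332% and 0.332% of all genes tested were called on the 3 days. The median of KO minus WT was 0.0979, 0.309 and 0.252, positive for 73, 77 and 78 of the 80 genes, while the medians of all genes tested were 0.00624, 0.00569 and 0.0126. Thus 49 and 66 genes fell in WT mice at days 14 and 21 against 0 and 7 in KO mice, without a difference in response that passed the test for any single gene in the fit without covariates. Leaving out WT naive mouse 1 moved these medians to -0.0313, 0.176 and 0.103.

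The responses of the 2 genotypes share no library and can be set side by side. At day 21 the log2 fold changes of the 80 genes had a Spearman rho of 0.82 and a Pearson r of 0.83 between WT and KO mice, and 77 genes were below 0 in both. At day 7 the values were 0.8 and 0.52 with 60 genes below 0 in both, and at day 14 they were 0.58 and 0.1 with 70. These are descriptions across genes of the same libraries, and genes are not independent replicates. Rps27, at -2.08 in WT and 0.47 in KO mice, was the gene whose values differed most at day 14. That WT value rests on WT naive mouse 2: without it Rps27 stood at -0.0684, the day 14 coefficients were 0.63 (Spearman) and 0.59 (Pearson), and Rps4l differed most, at -1.39 and -0.576. Without that mouse they were 0.83 and 0.85 at day 7 and 0.66 and 0.71 at day 21.

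**Figure D4:**
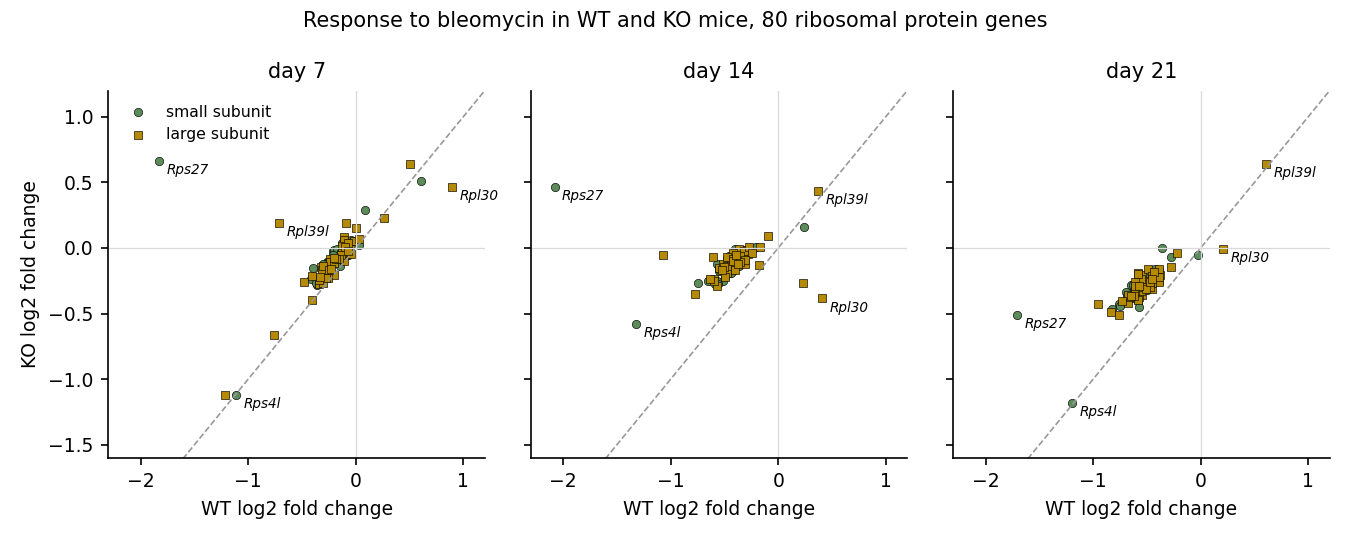
Log2 fold change against naive mice in KO (y) plotted against WT (x) for the 80 ribosomal protein genes at each day; circles are small subunit and squares large subunit genes, and the dashed line marks equal values. Of the 80 points, 73, 77 and 78 lie above the line at days 7, 14 and 21.

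For some of the genes the row that bears the name holds few of the reads. Rps27, a small subunit zinc finger protein, has a retrogene, Rps27rt, whose coding sequence is the same letter for letter, while the coding sequence of Rps27l differs from it at 61 of 255 bases (76.1% identity). The first 90 coding bases show where a read can be told apart between Rps27 and Rps27l, and that none can between Rps27 and Rps27rt; capitals mark bases of Rps27l that differ from Rps27, 24 in this stretch.
Rps27: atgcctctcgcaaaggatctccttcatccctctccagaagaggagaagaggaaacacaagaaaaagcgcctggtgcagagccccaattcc
Rps27rt: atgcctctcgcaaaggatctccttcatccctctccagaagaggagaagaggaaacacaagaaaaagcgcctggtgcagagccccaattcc
Rps27l: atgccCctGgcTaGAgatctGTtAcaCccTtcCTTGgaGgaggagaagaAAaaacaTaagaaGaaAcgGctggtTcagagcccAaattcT

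Rps27 (chromosome 3, 90212522 to 90213651, minus strand, 5 exons) had 1.204, 9.371 and 0.673 CPM in WT naive mice and between 0.4886 and 1.5 CPM in the other 21 mice. WT naive mouse 2 stood alone. Rps27rt (chromosome 9, 114982366 to 114982739, minus strand, 1 exon) had 163.4 to 382.5 CPM over the 24 mice. The decreases called for Rps27 in WT mice, -1.83, -2.08 and -1.71 at days 7, 14 and 21 (edgeR adjusted p = 0.031, 0.019 and 0.046), rest on that mouse: without it the values were 0.182 at day 7, -0.0684 at day 14 and 0.301 at day 21.

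With the rows of Rps27 and Rps27rt summed, the levels were 383.7, 237.5 and 283.7 CPM in WT naive mice and 193.1, 212.3 and 178.1 CPM at day 21. The 2 groups did not overlap, and the sum fell by 0.63 at day 21 (edgeR adjusted p = 0.02). It stood at -0.50 at days 7 and 14 (adjusted p = 0.058 and 0.065). Beside the medians of the 80 genes, -0.201, -0.439 and -0.563, the sum was lower at day 7 and close at days 14 and 21.

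Rpl26, Rpl30 and Rpl34 show the same split with processed pseudogenes. Their rows held 676.2, 624.8 and 1437.1 counts per mouse on average, while Gm15772 (chromosome 5), Gm12191 (chromosome 11) and Rpl34-ps1 (chromosome 6) held 13953.8, 8904.5 and 6215.2. Rpl30 had 18.22, 13.16 and 10.87 CPM in WT naive mice and 33.24, 22.63 and 22.56 CPM at day 7, without overlap, and rose by 0.90 (SE 0.21, edgeR adjusted p = 0.0022). Gm12191 had 363.2, 265 and 313.5 CPM in the same naive mice and 342.6, 208.8 and 235.2 CPM at day 7, and the sum of both rows stood at -0.19. Gm12191 fell at day 14 and day 21 by 0.48 and 0.56 (edgeR adjusted p = 0.026 and 0.011), as most ribosomal genes did.

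In all, 12 of the 80 genes had another row whose transcript matched theirs at 95% identity or more over at least 50% of its length. With the 4 pairs summed, 49 genes were called at day 14 and 69 at day 21 in WT mice. With the analysis kept to the 60 genes whose counts were whole numbers in all mice, 39 and 50 were called.

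**Figure D5:**
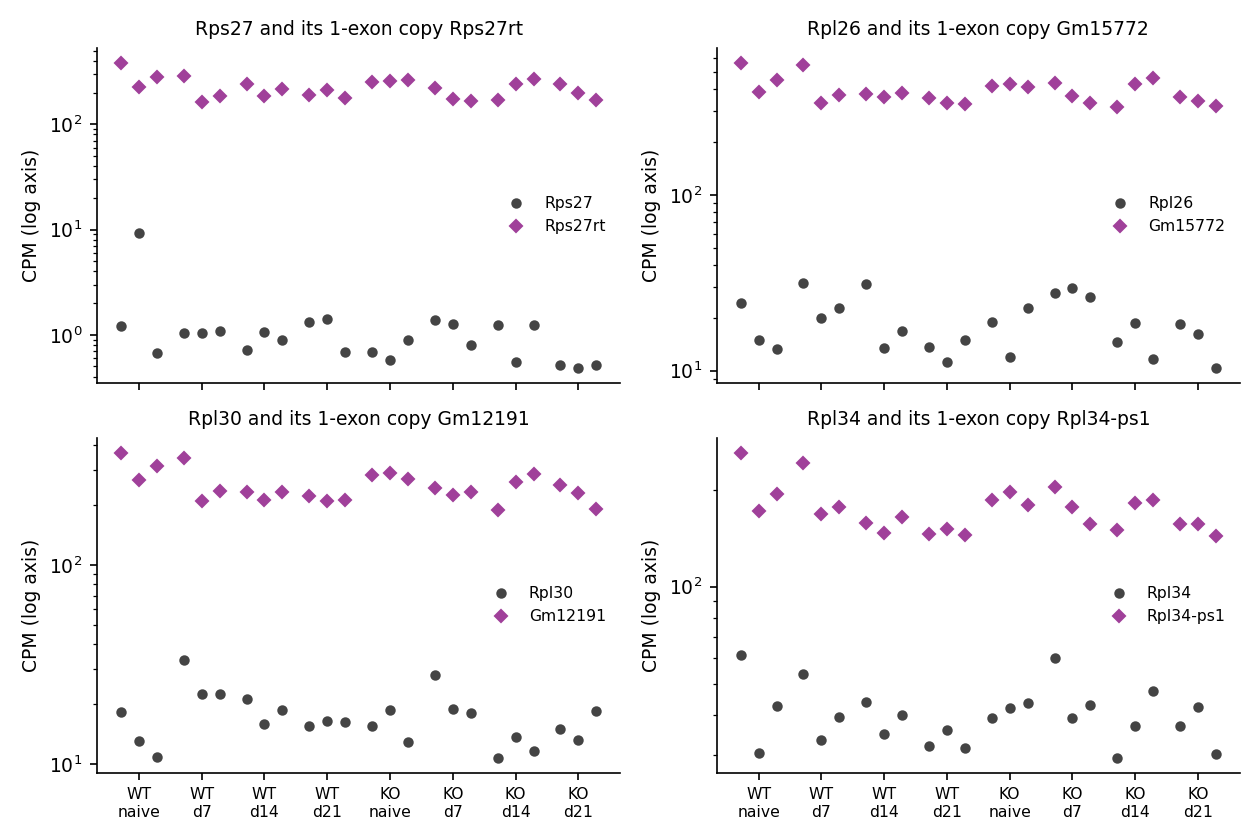
Levels (CPM, log axis) of Rps27, Rpl26, Rpl30 and Rpl34 and of the near-identical row of each (Rps27rt, Gm15772, Gm12191 and Rpl34-ps1) in the 24 mice by group. In every panel the near-identical row lies above the named gene in all mice, and Rps27 in WT naive mouse 2 is the point far above the other Rps27 values.

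Ribosomal components outside the naming rule had WT medians of the same sign as the 80 genes at days 14 and 21. Of 7 tested, 1 fell in WT mice at day 14, Rps3a1, and 3 at day 21, Rps3a1, Fau and Rps27rt, with medians of -0.385 and -0.456; edgeR called 0 in KO mice (at an unadjusted p under 0.05, Rps27rt at day 7 and Rps3a1 at day 21), with medians of 0.029, -0.104 and -0.217 at days 7, 14 and 21. Rps3a1 fell by 0.44 and 0.62 (edgeR adjusted p = 0.015 and 0.0013), and Fau, which encodes a small subunit protein fused to a ubiquitin-like peptide, fell by 0.46 at day 21 (adjusted p = 0.024). Of 7 ribosomal protein pseudogene rows, 2 and 3 fell in WT mice at days 14 and 21, and edgeR called 0 in KO mice, with 0, 0 and 1 at an unadjusted p under 0.05. For both lists the shares to set beside these counts are 13.4% and 13.7% of all genes tested lower in WT mice at days 14 and 21. In KO mice 34.1%, 16.9% and 21.9% of all genes tested were called in either direction at days 7, 14 and 21. With 7 genes in each list, such counts say little.

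Elongation factors and other genes with known TOP mRNAs had a like pattern in WT mice at days 14 and 21. Of 23 such genes tested, 1 rose and 7 fell in WT mice at day 7, 12 fell at day 14 and 14 at day 21. The medians were -0.30, -0.459 and -0.539. Of all genes tested, 20.2% rose and 15.3% fell in WT mice at day 7, and 13.4% and 13.7% fell later. In KO mice 2 of the 23 rose and 3 fell at day 7, 1 fell at day 14 (Nap1l1) and 4 at day 21 (Nap1l1, Naca, Npm1 and Eef1d). The KO medians were -0.23, -0.155 and -0.271. The KO shares of all genes tested were 19.7% higher and 14.4% lower at day 7, and 4.84% and 6.89% lower at days 14 and 21. Eef2, the translocation factor, had 3468, 2923 and 3058 CPM in WT naive mice and 2107, 2025 and 1948 CPM at day 21, without overlap, and fell by 0.64 (SE 0.14, edgeR adjusted p = 0.0017). Npm1, the nucleolar chaperone, fell by 0.77 in WT and 0.47 in KO mice at day 21 (edgeR adjusted p = 0.00095 and 0.038). Nap1l1, a histone chaperone, fell in both genotypes on all 3 days, by 1.17 in WT and 0.86 in KO mice at day 21 (adjusted p = 4.9e-05 and 0.0015).

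Of the genes that build the ribosome, 19 of 46 fell in each genotype at day 21 and 27 did not pass the test, where 13.7% of all genes tested fell in WT and 6.89% in KO mice. Of the 46 biogenesis genes, 4 rose and 5 fell in WT mice at day 7, and 19 fell on each later day, with medians of -0.345 and -0.311. At day 7, 20.2% of all genes tested rose and 15.3% fell in WT mice, and 19.7% rose and 14.4% fell in KO mice. At day 14, 13.4% fell in WT mice. In KO mice 1 rose and 9 fell at day 7, 6 fell at day 14, where 4.84% of all genes tested fell, and 19 at day 21, with medians of -0.161, -0.209 and -0.332. Fbl, the methyltransferase of small nucleolar particles, fell in WT mice by 0.55 and 0.59 at days 14 and 21 (edgeR adjusted p = 0.00016 and 8.1e-05), and Nop58 of the same particles fell in KO mice by 0.58 and 0.69 (adjusted p = 0.002 and 0.00033). Sbds, which helps to release Eif6 from new large subunits, fell by 0.65 in WT and 0.60 in KO mice at day 7 (adjusted p = 8.5e-05 and 0.00019). At day 21 the KO count of biogenesis genes equalled the WT count, while for the ribosomal proteins they were 7 and 66. Whether the lists differ in this was not tested.

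Translation initiation factors and mitochondrial ribosomal proteins were called in both directions at day 7. Of 29 initiation factors, 3 rose and 1 fell in WT mice at day 7, and 7 and 8 fell at days 14 and 21, with medians of -0.0315, -0.171 and -0.126. In KO mice 3 rose and 2 fell at day 7, 3 fell at day 14 (Eif5, Eif3g and Eif2b3) and 4 at day 21 (Eif3g, Eif2b3, Eif2b2 and Eif5). Of 77 mitochondrial ribosomal protein genes, which serve the separate ribosome of that organelle, 17 rose and 4 fell in WT mice at day 7, 4 rose and 11 fell at day 14, and 4 rose and 9 fell at day 21, with medians of 0.131, -0.0836 and -0.0893. These shares, 22.1% higher at day 7 and 14.3% and 11.7% lower at days 14 and 21, lay near those of all genes tested (20.2%, 13.4% and 13.7%). In KO mice 11 rose and 3 fell at day 7, 1 rose (Mrpl52) and 1 fell (Mrps5) at day 14, and 1 rose (Mrpl52) and 7 fell at day 21. Of all genes tested in KO mice, 19.7%, 12% and 15% rose at days 7, 14 and 21, and 14.4%, 4.84% and 6.89% fell.

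Regulators of ribosomal genes were called in both directions. Of 29 regulators tested, 4 rose and 4 fell in WT mice at day 7, 3 rose and 2 fell at day 14, and 2 rose and 2 fell at day 21. In KO mice 5 rose and 1 fell, 4 rose and 1 fell, and 4 rose and 2 fell. Of all genes tested, 35.5%, 32.1% and 32.5% were called in either direction in WT mice at days 7, 14 and 21. In KO mice these shares were 34.1%, 16.9% and 21.9%. Myc, a transcription factor that drives ribosomal protein and biogenesis genes, stood at 86.73, 41.66 and 64.41 CPM in WT naive mice, 25.97, 27.37 and 28.83 CPM at day 7, 16.1, 13.69 and 12.27 CPM at day 14 and 25.66, 34.08 and 23.01 CPM at day 21. Every naive mouse was above every mouse given bleomycin. It fell by 1.23, 2.20 and 1.22 (edgeR adjusted p = 0.00091, 3.3e-06 and 0.0012).

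In KO mice Myc had 55, 49.3 and 41.66 CPM in naive mice, 15.26, 28.26 and 38.92 CPM at day 14 and 28.96, 37.41 and 36.31 CPM at day 21. It was called at day 14 (-0.82, edgeR adjusted p = 0.032) and stood at -0.42 and -0.51 at days 7 and 21 (adjusted p = 0.21 and 0.17). Myc and the ribosomal gene share put the mice in the same order in 3 of the 8 groups, WT naive, WT day 21 and KO day 14. In 1 group, KO day 7, Myc had the reverse order of the share. In KO mice of day 21 and WT mice of day 7, mouse 1 had the highest share and the lowest Myc. Its antagonist Mxd1 fell in WT mice by 1.14, 1.39 and 1.14 (edgeR adjusted p = 4.5e-06, 4.7e-07 and 4.9e-06), and was lower in KO than WT naive mice (log2 fold change -1.11, edgeR adjusted p = 0.00057).

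Sesn1 and Ddit4, which restrain mTOR complex activity, rose in both genotypes on all 3 days, by 2.60, 2.78 and 2.95 and by 3.66, 3.22 and 3.85 in WT mice, with edgeR adjusted p of at most 0.0038. Mtor and Larp1 were not called against naive mice on any day. Larp1 had 55.12 CPM in WT naive mouse 1 against 126.7 and 128.8 CPM in the other WT naive mice, and 80.53 CPM in WT day 7 mouse 1 against 169 and 135.8 CPM, so the Rn45s-rich libraries were low in it.

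Markers of other cell states changed over the same comparisons. As background to the counts below, 20.2%, 18.7% and 18.8% of all genes tested rose in WT mice at days 7, 14 and 21, and 15.3%, 13.4% and 13.7% fell. The shares in KO mice were 19.7%, 12% and 15% higher and 14.4%, 4.84% and 6.89% lower. In WT mice the recruited macrophage markers summed to 561.9 to 612.2 CPM in naive mice, 5614 to 6265 CPM at day 7, 6147 to 10160 CPM at day 14 and 5486 to 5929 CPM at day 21, and 17 of the 18 rose on each day. Resident markers summed to 30350 to 36530, 12920 to 15640, 16330 to 22850 and 22320 to 25390 CPM, with 13, 10 and 8 of 18 falling. In KO mice 17, 15 and 16 recruited markers rose on the 3 days, and resident markers summed to 32320 to 34240 CPM in naive mice and 12220 to 17020, 21000 to 31320 and 20810 to 29810 CPM afterwards. Markers of other cell types moved over the same comparisons as well. In WT mice, T or NK cell markers summed to 401.1 to 448.4 CPM in naive mice and 191.5 to 225.3 CPM at day 21, although 12, 9 and 9 of the 13 tested rose on the 3 days. Dendritic cell markers summed to 102.4 to 110.9 CPM in WT naive mice, 142.6 to 171.6 at day 7, 158.8 to 182.8 at day 14 and 161.8 to 164.5 at day 21, and 8, 7 and 7 of 10 rose. Neutrophil markers went from 62.48 to 66.23 CPM in WT naive mice to 114.9 to 122.2 CPM at day 21, when 4 of 6 rose. Epithelial markers summed to 242.8 to 279.9 CPM in WT naive mice and 122.2 to 133.8 CPM at day 21, although 5, 4 and 7 of 10 rose on the 3 days.

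Erythroid markers summed to 0.02938 to 16.78 CPM in WT naive mice and 100.5 to 352 CPM at day 21, when 4 of 5 rose, against 1 on each earlier day. In KO mice the numbers that rose on the 3 days were 10, 10 and 11 for T or NK cells, 5, 3 and 4 for dendritic cells, 2, 1 and 2 for neutrophils, 1, 6 and 5 for epithelium and 3 each day for erythroid cells. B cell markers summed to 0.09897 to 5.68 CPM over the 24 mice. Cell cycle markers summed in WT mice to 817.5 to 894.2, 1015 to 1159, 612.5 to 739.4 and 576.9 to 596.7 CPM. Of 16, 9 rose at day 7 and 7 fell on each later day, and in KO mice 12 rose at day 7 and 7 and 10 fell later. The part of these cell states in the lower ribosomal protein levels was not tested.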

How the data were processed

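The deposited table holds expected counts (estimated read counts per gene, some not whole) for 24 mice, with 1 column per mouse although the labels list 2 sequencing runs each. Per the labels' protocols, RNA was purified with RNeasy Micro Plus, 200 ng went into mRNA libraries, and sequencing gave 150 bp paired ends. Per the submitters' processing notes, the build was mm10, and bcl2fastq, DESeq2 1.42.0 and limma 3.58.1 were used. The aligner, the counting tool and any use of strand were not given in the sources used here. A further 24 columns of the table were not used here. Values were not whole in 3.11 to 3.85% of entries, in 20 of the 80 ribosomal genes in at least 1 mouse and in 13 in all mice.

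Counts were rounded. Genes were kept with filterByExpr of edgeR 4.0.16 (R 4.3.3; minimum count 10, minimum total 15), which left 12634 of 24411 genes (51.8%). After TMM scaling, 1 quasi-likelihood model with 8 group means was fitted (16 residual and 4.43 prior degrees of freedom, common biological coefficient of variation 0.21). Calls were made at an adjusted p under 0.05 (Benjamini-Hochberg, over all genes tested). Positions, lengths and coding sequences are from GENCODE vM21 (GRCm38), start windows from RefSeq (GRCm38.p6). For the balance of short over long mRNAs, a gene's length was the median over all its annotated transcripts, non-coding ones included. By this length 4400 genes were short (under 1000 bases) and 772 long (over 4000 bases). Rows were near-identical at 95% identity over 50% of the transcript. Data were simulated for 1 comparison, WT day 21 against naive mice, with 11500 genes, and not for the whole model of 8 groups. The test recovered 27.7% of 65 genes changed 1.5-fold, 74.6% of 71 changed 2-fold and 90.3% of 64 changed 4-fold. Of the 135 genes called, 8 were false.

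The ribosomal genes and the other lists were chosen with earlier results of these data known. Named genes were, per comparison, up to 4 called members with the highest and 4 with the lowest fold change, a panel of members with known roles (stalk, 5S partners, paralogs), the highest and lowest members by level and by SD, up to 4 called genes of each other list by p, and Rn45s, Siglecf, Myc, Mtor and Larp1. Others (Rps9, Rps2, Rpl23a, Rpl7a, Rps7, Rpl18, Rpl34, Rpl35, Rpl38, Rpl15, Rps10, Rps18) were named after their values were seen. Results of some genes are not reported here. Alternatives were RLE scaling, scaling without the ribosomal genes and Rn45s, DESeq2, no filter, the compared groups alone, a replicate block, the Rn45s share as a covariate and leaving out each mouse. The mRNA length balance as a covariate, summed near-identical rows, genes with whole counts only, and leaving out both Rn45s-rich libraries were added after seeing the data. Replicates are separate mice per the labels, and reads carry no molecular identifiers.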

Additional observations from a re-analysis of the deposited data

How the results depend on the processing

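The decrease of the ribosomal genes in WT mice at days 14 and 21 kept its direction under all alternatives: medians ran from -0.564 to -0.307 at day 14 and from -0.669 to -0.413 at day 21. All 49 and all 66 genes called were also called by DESeq2 and with the mRNA length balance as a covariate, 48 and 65 with the Rn45s share as a covariate, and 46 and 66 with RLE scaling. Counts were less stable in the other comparisons. DESeq2 called 1 gene (Rps27) for KO against WT naive mice and 20 for WT day 21 against day 7. With the compared groups alone, counts were 3 (Rpl10, Rpl30 and Rps4l) for WT day 7, 15 for KO day 7, 1 (Rps4l) for KO day 14, 5 for WT day 21 against day 7 (Rpl26, Rpl30, Rpl4, Rps6 and Rps7) and 0 for KO day 21 against day 7. With the Rn45s share as a covariate, counts were 1 (Rpl13a) for KO against WT naive mice, 60 for WT day 7, 36 for KO day 21, 10 for KO day 21 against day 7 and 1 (Rps10) for the difference in response at day 14. Without both Rn45s-rich libraries they were 15 for WT day 7 and 1 (Rps27l) for WT day 21 against day 7. With the mRNA length balance they were 1 (Rpl13a) for KO against WT naive mice, 56 for WT day 7, 15 for KO day 7, 1 (Rps27l) for KO day 14, 5 for KO day 21, 1 (Rps27l) for WT day 21 against day 7 and 2 (Rpl39 and Rps29) for the difference in response at day 21.

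With 1 mouse left out, counts ran from 4 to 40 for WT day 7, 11 to 62 for WT day 14, 32 to 71 for WT day 21, 2 to 4 for KO day 7, 1 to 16 for KO day 21, 0 to 29 for WT day 21 against day 7, 0 to 2 for KO day 21 against day 7 and 0 to 1 for KO against WT naive mice. They were 0 throughout for KO day 14, for KO against WT at the other times and for the difference in response. In every such fit 3 genes were called at WT day 7 (Rpl10, Rpl30 and Rps4l), 5 at WT day 14 (Rpl10, Rpl23a, Rpl5, Rps4l and Rps4x), 31 at WT day 21, 2 at KO day 7 (Rpl10 and Rps4l) and 1 at KO day 21 (Rps4l).

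Values that reversed were those of Rps27 in WT mice, which with 1 mouse left out ran from -2.32 to 0.182 at day 7 and from -2.2 to 0.301 at day 21, the upper values being those without WT naive mouse 2, of Rpl30 at WT day 7 with near-identical rows summed (-0.186), and the median of KO day 21 against day 7 with the mRNA length balance (0.0216). Other medians changed sign by less than the spread between mice: KO day 14 without its mouse 1 (0.0183), KO against WT at day 7 without WT day 7 mouse 1 (0.138), without both Rn45s-rich libraries (0.131), with the Rn45s share (0.0406) or with the length balance (0.117), and the difference in response at day 7 without WT naive mouse 1 (-0.0313) or WT day 7 mouse 2 (-0.00259).

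Same-numbered mice of different groups had correlations of -0.64 to 0.6 (median -0.003) in their deviations, beside a median of 0.00018 for mice of other numbers. Of 24 mice, 10 correlated best with their own number. Deviations sum to 0 within each group of 3 mice, so this check cannot decide whether some mice were paired. With a replicate block the counts were 7 for WT day 7, 50 for WT day 14, 65 for WT day 21, 5 for KO day 7, 8 for KO day 21, 9 and 2 for day 21 against day 7 in WT and KO mice, and 0 in the other comparisons.

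Low counts limit the rows of Rps27, Rpl39l and Rpl3l, with mean levels of 1.277, 1.27 and 1.916 CPM, more than the other 77 genes, with a median of 404 CPM. For Rps27, the near-identical row Rps27rt held 7968.4 counts per mouse on average against 44.3 on its own row. With 3 mice per group, genes that were not called cannot be taken as unchanged.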
